A study of Mus musculus with 6 samples.

Results

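Fstl1, Unc5b, Vasn and Tcim were described as 4 genes whose transcripts were more abundant after transforming growth factor β1 (TGF-β1) in RNA harvests 1 and 2 and scarce in harvest 3. They were chosen by exactly these measured values, the change within harvests 1 and 2 and the dimness of harvest 3, from 29194 genes and transcripts tested on the arrays. Their changes and their shortage in harvest 3 are therefore given as descriptions without a test. Each gene was represented by 1 probe and 1 spot per array, found through the RefSeq accession the files give for the probe, and all 4 passed the filter on dim probes. The label holds for Fstl1, Unc5b and Vasn, whose probes were not well above background on the untreated array of harvest 3 and were so on the other 5 (745 genes, 2.55% of those tested, had this pattern of detection), whereas the Tcim probe was well above background on all 6 arrays. A probe counts as well above background by the scanner software's own flag.

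The series measured total RNA of Lhx2 cells, a mouse line named after the LIM-homeobox gene Lhx2, whose enforced expression is known to keep blood progenitors growing, on 1-colour microarrays. The cells were kept in stem cell factor (100 ng/ml) and human interleukin 6 (10 ng/ml) with 5% fetal calf serum, and the methods describe an overnight starvation, with 0.5% bovine serum albumin in place of the serum, before TGF-β1 was added. The treated group (3 arrays) was then given TGF-β1 (10 ng/ml) during 2 h, and the untreated group (3 arrays) was given none. Each of the 3 independent harvests gave 1 treated and 1 untreated array under the same replicate number, so a single cell line stands behind every value. The labels do not say whether the untreated cells were starved in the same way.

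TGF-β1 binds a pair of serine/threonine kinase receptors, and the SMAD proteins they phosphorylate enter the nucleus with Smad4 and change transcription within hours, first at genes of the pathway's own inhibitors. Fstl1 encodes follistatin-like 1, a secreted glycoprotein of the SPARC family that was first cloned as a TGF-β-stimulated transcript of osteoblastic cells. Vasn encodes vasorin, a membrane glycoprotein with leucine-rich repeats whose shed extracellular part binds TGF-β and dampens its signal. Unc5b encodes a receptor for the guidance protein netrin 1, known from axons and from endothelial cells. Tcim encodes a small protein, known in human as TC1, that relieves the inhibition of β-catenin by Chibby.

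The 75th percentile of the processed signal lay between 794.2 and 1031 units, and the share of probes well above background ran from 82.9% to 90.3%. Same-numbered arrays deviated together from their group means, with correlations of 0.607, 0.777 and 0.545 for harvests 1, 2 and 3. Across all genes, 74 changed with TGF-β1 (0.253% of those tested, limma with Benjamini-Hochberg adjusted p under 0.05), 66 of them higher (0.226%) and 8 lower (0.0274%), and 1684 (5.77%) had an unadjusted p under 0.05. With the harvest as a block 190 changed (0.651%), 155 of them higher (0.531%). The count was 55 on the arrays of harvests 1 and 2 alone with that block, and between 7 and 23 when any single array was left out. Only harvest 3 was set against the other harvests, so no such count exists for harvest 1 or 2. In that comparison each harvest had its own mean, so its p-values measure the spread within harvests and not that between them. Against the mean of harvests 1 and 2, with treatment as a covariate, 940 genes (3.22%) differed in level, 205 higher (0.702%) and 735 lower (2.52%), with 4121 (14.1%) at an unadjusted p under 0.05. This count was 579 without the treated array of harvest 2, 537 without the untreated array of harvest 2 and 1885 without the untreated array of harvest 3. Harvests 1 and 2 each lay on a single slide, while in harvest 3 the treated array lay on slide 2 and the untreated array on slide 1. Wherever the treated and untreated arrays of harvest 3 are set against each other, slide and treatment cannot be told apart.

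Among the 4 genes, Fstl1 had the greatest mean change in harvests 1 and 2. Its processed signal, background-corrected by the scanner software, was 230.3, 882 and 16.7 units on the TGF-β1 arrays of harvests 1, 2 and 3, against 62.2, 195 and 5.24 units on the untreated arrays. The treated array was the brighter one in every harvest, but both arrays of harvest 3 lay below every array of the other harvests, so the treated and untreated groups overlapped. After scaling to each array's 75th percentile, Fstl1 was 3.78-fold higher with TGF-β1 in harvest 1 and 4.50-fold higher in harvest 2, a mean log2 change of 2.05 ± 0.18 (SD, n = 2 harvests). In harvest 3 the untreated spot was positive and significant but not well above background, and Fstl1 was at least 1.499-fold higher with TGF-β1 there. Here and below, such a bound sets the treated value against the dimmest well-above-background probe of the untreated array, or the probe's own signal if that was higher.

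Vasn, the TGF-β-binding membrane protein, had 350.2, 879.8 and 14.7 units on the TGF-β1 arrays of harvests 1, 2 and 3, against 157, 269 and 5.00 units on the untreated arrays. Again the highest and the lowest signals were separated by harvest, with both arrays of harvest 3 below the rest. The change was 2.28-fold in harvest 1 and 3.26-fold in harvest 2, with a mean log2 value of 1.45 ± 0.36 (SD, n = 2 harvests), the smallest mean of the 4 genes. In harvest 3 Vasn was at least 1.32-fold higher with TGF-β1.

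Unc5b, the netrin receptor gene, had 110.0, 130 and 8.60 units on the TGF-β1 arrays of harvests 1, 2 and 3, against 30.4, 42.7 and 2.08 units on the untreated arrays. It differed from the other 3 genes in that harvests 1 and 2 were nearly level: harvest 2 was 1.14-fold above harvest 1 for Unc5b, against 1.85-fold for Vasn, 3.08-fold for Fstl1 and 3.98-fold for Tcim. The change was 3.70-fold in harvest 1 and 3.02-fold in harvest 2, with a mean log2 value of 1.74 ± 0.21 (SD, n = 2 harvests). On the untreated array of harvest 3 the Unc5b signal was about as large as its own error (2.07 units) and was not significantly positive. The treated signal of that harvest lay under the lowest well-above-background signal of the untreated array, so no bound on the Unc5b change can be given there.

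Tcim, the gene of the small β-catenin-pathway protein, had 838, 4411 and 31.4 units on the TGF-β1 arrays of harvests 1, 2 and 3, against 296, 1128 and 13.4 units on the untreated arrays. The spread between harvests exceeded the change with treatment: the untreated array of harvest 2 was brighter than the treated array of harvest 1. Tcim was 2.89-fold higher with TGF-β1 in harvest 1, 3.90-fold in harvest 2 and 1.81-fold in harvest 3, where both arrays were measured. The mean log2 change over harvests 1 and 2 was 1.75 ± 0.30 (SD, n = 2 harvests), and the log2 change in harvest 3 was 0.86.

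The order of the 6 arrays was the same for Fstl1, Unc5b and Vasn: treated harvest 2, treated harvest 1, untreated harvest 2, untreated harvest 1, treated harvest 3 and untreated harvest 3. For Tcim the untreated array of harvest 2 stood above the treated array of harvest 1. Over the 6 arrays the Pearson correlation between any pair of the 4 genes lay between 0.951 (Unc5b with Tcim) and 0.992 (Fstl1 with Tcim). The arrays share harvest, slide and scaling, and the genes were chosen for this profile, so the correlation is a description.

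**Figure D1:**
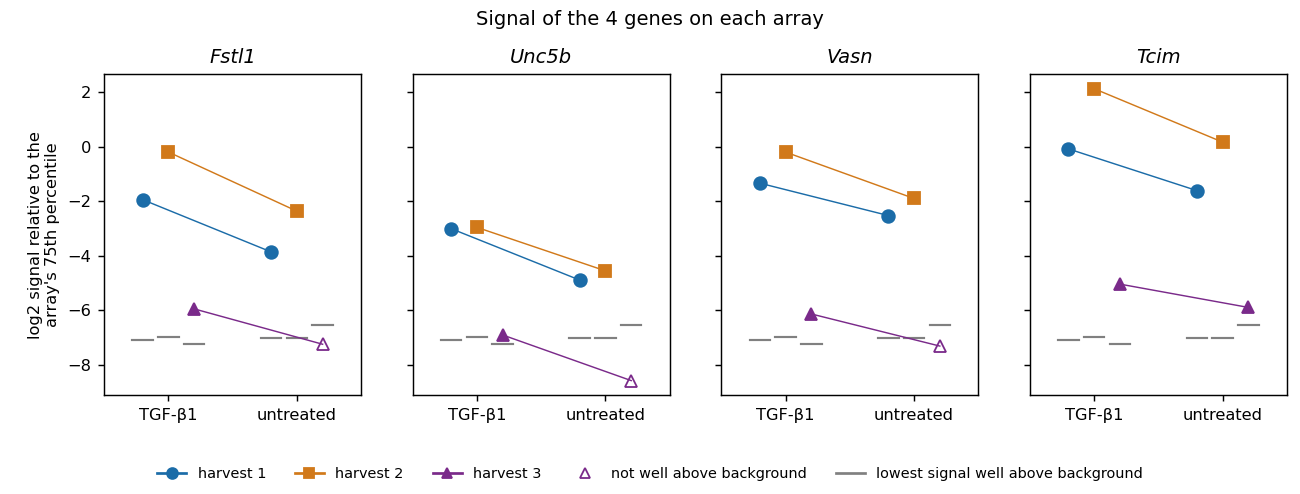
Log2 signal relative to the array's 75th percentile (vertical axis) for Fstl1, Unc5b, Vasn and Tcim on the TGF-β1 and untreated arrays; symbols and lines mark the harvest, open symbols a spot not well above background, and grey dashes the lowest well-above-background signal of that array. The arrays of harvest 3 lie below all others for each gene, with log2 values between -5.04 and -8.58.

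Promoters are shown as a description for the 3 genes matched in the RefSeq promoter table (Fstl1, Vasn and Unc5b). The shared profile was the ground of their choice, and its relation to these sequences was not tested. Each window is the 250 bases before the annotated start on build GRCm38.p6 (chr16:37776805-37777054, plus strand, for Fstl1, chr16:4639695-4639944, plus strand, for Vasn, and chr10:60831582-60831831, minus strand, for Unc5b). Capitals mark AGAC, the core bound by SMAD3 and SMAD4, and the GC-rich SMAD sequences GGCGC and GGCCG, on either strand and with overlaps.
Fstl1: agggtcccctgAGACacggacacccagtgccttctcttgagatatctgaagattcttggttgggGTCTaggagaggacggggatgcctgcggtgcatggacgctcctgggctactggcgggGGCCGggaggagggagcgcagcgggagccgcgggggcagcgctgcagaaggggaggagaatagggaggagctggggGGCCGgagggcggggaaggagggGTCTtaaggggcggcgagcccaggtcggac
Vasn: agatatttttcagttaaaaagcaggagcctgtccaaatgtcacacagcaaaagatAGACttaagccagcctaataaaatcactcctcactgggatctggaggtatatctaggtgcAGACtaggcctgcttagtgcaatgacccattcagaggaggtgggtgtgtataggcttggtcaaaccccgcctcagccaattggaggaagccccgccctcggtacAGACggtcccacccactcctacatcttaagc
Unc5b: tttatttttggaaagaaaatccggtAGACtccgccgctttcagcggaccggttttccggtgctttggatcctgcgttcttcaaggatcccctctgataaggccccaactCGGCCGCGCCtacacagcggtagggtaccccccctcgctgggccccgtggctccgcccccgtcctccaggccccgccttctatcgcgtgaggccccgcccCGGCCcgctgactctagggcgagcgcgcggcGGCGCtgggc

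AGAC stood 3 times in the Fstl1 window, 3 times in that of Vasn and 1 time in that of Unc5b, and 82.9% of all 32851 promoter windows of this length held it. GGCCG stood 2 times before Fstl1 and 3 times before Unc5b, counting both strands (30.4% of windows hold it), and GGCGC 2 times before Unc5b (32.0%). The longer CAGACA (17.1%) and the AP-1 sequence TGANTCA (6.75%) were in none of the 3 windows. The Fstl1 and Unc5b windows were rich in G and C (68.0% and 66.8%), and that of Vasn was not (49.6%, against a median of 52.4%), so that base composition differed among the 3.

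All 4 genes were scarcer in harvest 3 than in the other harvests in both groups of arrays. On the treated arrays, where every spot was well above background, Tcim was 67.0-fold lower in harvest 3 than in the mean of harvests 1 and 2, Vasn 41.3-fold, Fstl1 29.5-fold and Unc5b 15.2-fold. On the untreated arrays Tcim was 36.1-fold lower, Vasn at least 19.99-fold, Fstl1 at least 10.7-fold and Unc5b at least 3.50-fold. These folds rest on 1 array of harvest 3 against 2 arrays each. Averaged over both groups the log2 level was lower in harvest 3 by 5.62 for Tcim and by at least 4.85 for Vasn, 4.15 for Fstl1 and 2.87 for Unc5b. Taking dim spots as measured, these were 5.24 for Vasn, 4.51 for Fstl1 and 3.89 for Unc5b. On that scale 328 of all genes tested (1.12%) were at least 2 log2 units lower in harvest 3 and 12 at least 2 units higher.

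The gap was present on each slide. On slide 2, between the treated arrays, Tcim was 144-fold lower in harvest 3 than in harvest 2, Vasn 61.4-fold, Fstl1 54.1-fold and Unc5b 15.4-fold. On slide 1, between the untreated arrays, Tcim was 19.5-fold lower in harvest 3 than in harvest 1, Vasn at least 16.1-fold, Fstl1 at least 6.38-fold and Unc5b at least 3.12-fold. The size depended on how the background was treated. In the authors' matrix values the log2 gap was 4.25 for Tcim, 2.85 for Vasn, 2.40 for Fstl1 and 1.43 for Unc5b. With a normal-exponential background model (normexp) fitted without a few aberrant spots it was 3.82, 2.29, 2.00 and 0.99 in the same order. Fitted on all spots, the model gave a distorted background on both arrays of harvest 3 and turned the direction for Unc5b (-0.70). In bulk RNA, fewer cells of a type that carries a transcript and less of it per cell cannot be told apart.

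The 5 inhibitors of TGF-β signalling fixed for this description, whose transcripts are early targets of the pathway, had changes of similar size in all 3 harvests. Other inhibitors and early targets are not covered by this statement. Smad7, the inhibitory SMAD that blocks the TGF-β receptor, had log2 changes of 3.55, 3.62 and 3.50 in harvests 1, 2 and 3 (3.56 in the treatment fit, SE 0.15, adjusted p = 0.00115, limma). The SMAD co-repressor genes Skil and Ski had changes of 3.64, 3.37 and 3.37 and of 3.06, 2.82 and 2.92 in the same order. Smad6, the inhibitory SMAD of the bone morphogenetic protein branch, had 2.97, 2.75 and 2.57, and Ldlrad4, a membrane inhibitor of SMAD activation, 4.49, 3.71 and 4.01. In a fit of the difference between the change in harvest 3 and that in harvests 1 and 2, 0 of 29194 genes passed by limma with Benjamini-Hochberg adjustment, with 8496 (29.1%) at an unadjusted p under 0.05. That fit has 1 residual degree of freedom per gene before moderation, so a count of 0 does not show that the changes were equal. The count was 1567 in the authors' matrix values, 2801 and 15358 with the normexp model without and with the aberrant spots, and 5 over probes well above background on all 6 arrays, so no single gene is described from it.

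The changes of the 4 in harvest 3 were measured at signals where its treated and untreated arrays differed as a whole. As measured, with no floor for dim spots, the log2 changes in harvest 3 were 1.30 for Fstl1, 1.67 for Unc5b, 1.18 for Vasn and 0.86 for Tcim. The 3356 other genes with a mean level in harvest 3 in the range of the 4 had a median log2 change of 0.47 in that harvest, with quartiles of 0.07 and 0.86. Genes in the same range of level had medians of -0.11 in harvest 1 (3756 genes) and -0.16 in harvest 2 (2868 genes). The Tcim value of harvest 3 lay at the upper quartile of the 3356 genes, but Tcim itself marks the bright end of that range. The other genes were thus no brighter than Tcim and were not matched to its level. Over all genes tested the median change in harvest 3 was 0.11. The quartiles took dim spots as measured. For Fstl1 and Vasn only the bounds of 0.58 and 0.40 are known and for Unc5b none, so these 3 cannot be placed against the quartiles. The arrays of harvests 1 and 2 had log2 levels above that range for all 4 genes. The part of the array or slide in the harvest 3 values was not tested.

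**Figure D2:**
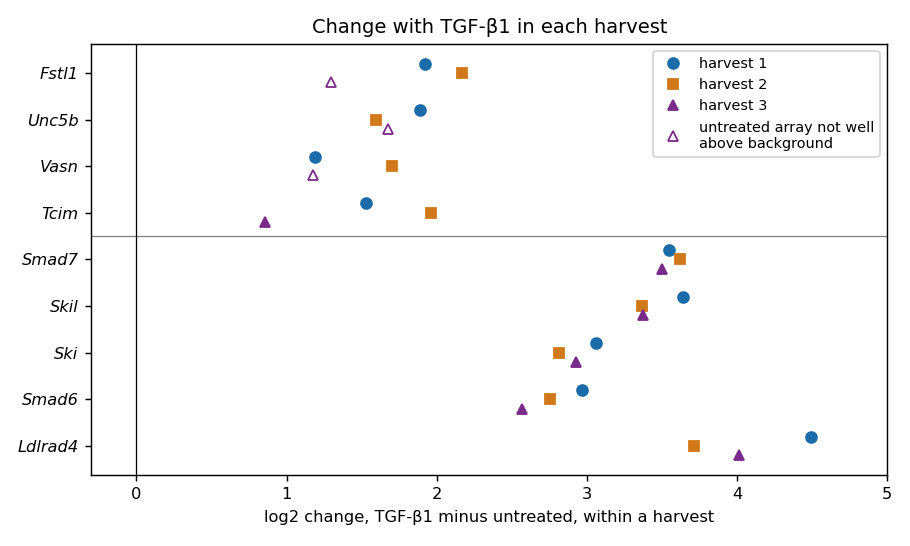
Log2 change with TGF-β1 within each harvest (horizontal axis) for the 4 genes above the line and for 5 inhibitors of TGF-β signalling below it; open symbols have an untreated spot not well above background. Smad7, Skil and Ski had nearly the same change in all 3 harvests, while Tcim had 1.53, 1.96 and 0.86.

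The combination was counted over all genes tested. A log2 change of at least 1 in both harvest 1 and harvest 2 was found in 214 genes and transcripts (0.733% of those tested), 130 of them with a gene symbol. Of the 214, 15 (0.0514% of all tested) were also at least 2 log2 units lower in harvest 3, with dim spots as measured. Over all genes tested, 328 of 29194 (1.12%) were that much lower. The 15 held the 4 genes, which had been chosen for such values, 7 others with a symbol and 4 transcripts without one. With values of dim spots raised to the lowest well-above-background signal of the array the count was 12, with all 4 genes among them. It was 6 in the authors' matrix values (3 of the 4 genes), 4 with the trimmed normexp model (2 of the 4) and 5 over probes well above background on all arrays (Tcim alone of the 4). These limits were set for this description and are not those by which the 4 genes had been picked. Just outside the limit on level were F2r, the thrombin receptor gene (1.84 log2 units lower in harvest 3), and Jag1, a Notch ligand gene (1.80 lower, not well above background on the untreated array there), and just inside was Whrn (2.04 lower).

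Of the other genes with this combination, 6 are described here. Snai1, the zinc-finger repressor of epithelial genes and a known target of TGF-β in other cells, had changes of 1.93 and 1.59 in harvests 1 and 2 and a level at least 17.3-fold lower in harvest 3. Ccn4, a matricellular protein gene known as a Wnt target, had changes of 1.89 and 1.22 and was at least 15.5-fold lower in harvest 3. For Snai1 and Ccn4 the untreated spot of harvest 3 was not well above background. Bcar3 (1.93 and 1.98 in harvests 1 and 2), Vegfc, a lymphatic growth factor gene (1.52 and 1.52), Whrn (1.37 and 1.68) and Pdzrn3 (1.52 and 1.25) were the other 4. Bcar3 was at least 5.30-fold lower in harvest 3, Vegfc 5.27-fold, Pdzrn3 4.72-fold and Whrn 4.12-fold. Vegfc and Whrn were measured on all arrays and had changes of 1.70 and 1.82 in harvest 3, whereas Pdzrn3, also measured on all arrays, had -0.19.

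**Figure D3:**
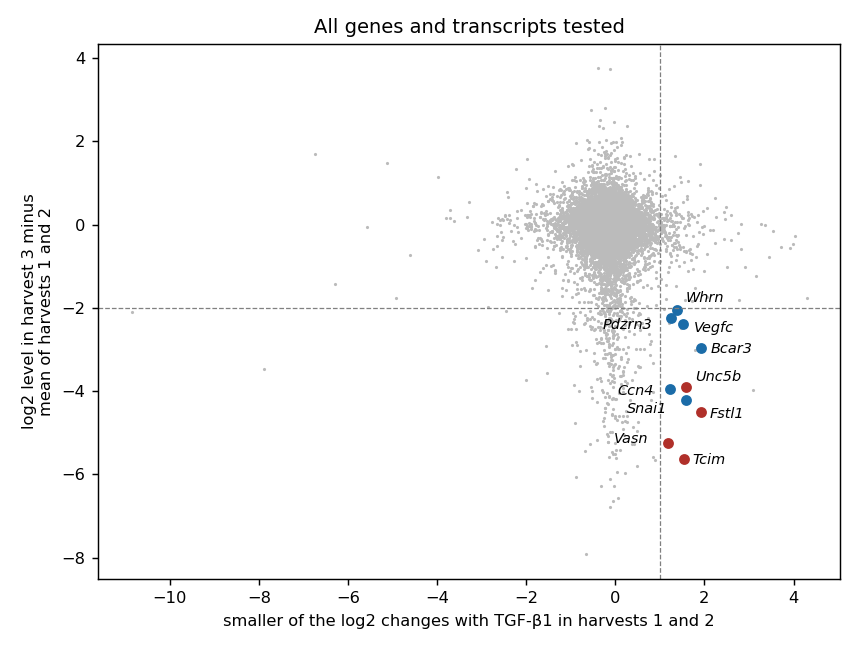
Each grey point is a gene or transcript tested, by the smaller of its log2 changes with TGF-β1 in harvests 1 and 2 (horizontal axis) and its log2 level in harvest 3 minus the mean of harvests 1 and 2 (vertical axis); dashed lines mark 1 and -2, and dim spots are taken as measured. The 4 genes (red) and the 6 other genes described (blue) occupy the lower right corner, and most genes with a wide gap in harvest 3 lie near 0 on the horizontal axis.

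In the 4 lists of genes related to the members by family or pathway, 0 genes passed the treatment test, with or without the harvest as a block. Over all genes 0.253% passed without the block (5.77% unadjusted) and 0.651% with it. For lists of this length a count of 0 is near that share and does not show that these genes were unchanged. Among relatives and receptors of follistatin-like 1, 14 of 17 were measured, 0 passed (2 at an unadjusted p under 0.05, limma) and the median log2 change was 0.09, against -0.01 over all genes tested. In harvest 3, where 2.52% of all genes were lower and 0.702% higher, 2 of the 14 were lower. Sparc, the matrix protein that names the family, was 4.51-fold lower (log2 -2.17, SE 0.13, adjusted p = 0.00355) and Igfbp7 5.11-fold lower (-2.35, SE 0.11, adjusted p = 0.00162), and the other 12 did not pass. The netrin and UNC5 list had 17 of 20 measured, 0 passed with TGF-β1 (1 unadjusted, median 0.05), and Rgma, a ligand of the netrin receptor neogenin, alone passed in harvest 3 (1 of 17, against 2.52% of all genes lower; 14.9-fold lower, log2 -3.90, SE 0.16, adjusted p = 0.00120). Of the Wnt and Chibby genes, 16 of 19 were measured and 0 passed with TGF-β1 (2 unadjusted, median 0.03). Tcf7l1 (2.67-fold lower) and Tcf7l2 (3.25-fold lower), which encode DNA-binding partners of β-catenin, differed in harvest 3, as did Rnf43, a Wnt inhibitor gene, in the other direction (log2 0.77), which makes 2 of 16 lower and 1 higher, against 2.52% and 0.702% of all genes.

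Extracellular binders of TGF-β, the list nearest to vasorin in function, had 19 of 21 members measured, 0 past the threshold with TGF-β1 (3 unadjusted, median 0.20) and 6 lower in harvest 3 (against 2.52% of all genes; 0 higher; median -0.06, against 0.04 over all genes). Dcn, the TGF-β-binding proteoglycan decorin, was 47.8-fold lower (log2 -5.58, SE 0.13, adjusted p = 0.000456). Cd109, a membrane co-receptor that restrains TGF-β signalling, was not well above background on the untreated array of harvest 3 and was at least 40.1-fold lower (adjusted p = 0.000456). Dcn and Cd109 had log2 changes with TGF-β1 of 0.21 and -0.08 in harvest 1 and of -0.14 and 0.22 in harvest 2. Ltbp3, a latent TGF-β-binding protein gene, was 2.72-fold lower. Fbn1, a fibrillin gene, was at least 4.52-fold lower, and Ltbp2 and Htra1 were the others.

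The list of TGF-β feedback and early targets had all 23 members measured and 6 higher with TGF-β1 (Smad7, Skil, Ski, Smad6, Ldlrad4 and Id3), against 0.226% of all genes higher, with 0 lower. The count was 9 with the harvest as a block, against 0.531% of all genes. It was 7 in harvests 1 and 2 alone, against 52 higher of all 29194 genes. Its median log2 change was 1.02, 0.99 and 0.76 in harvests 1, 2 and 3. In level, 1 member was lower in harvest 3 (Smurf1, a ubiquitin ligase gene, 2.17-fold), 1 was higher (Tgfbi, a TGF-β-induced matrix protein gene, log2 0.89), and the median was -0.14 (0.018 with the normexp model on all spots).

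Mesenchymal and stromal markers were the list most widely lower in harvest 3. Of its 26 members, all measured, 16 were lower and 0 higher (median log2 -2.53), against 2.52% of all genes lower and a median of 0.04 over all genes. With the normexp model on all spots the list's median was -0.64, where that of all genes was 0.57. Among the members that were lower, Dcn and Fbn1 also stand in the list of TGF-β binders. Sparc also stands in that of follistatin-like 1 relatives, so the counts of these lists overlap. Fn1, which encodes fibronectin, was at least 99.8-fold lower (log2 -6.64 in the fit, SE 0.16, adjusted p = 0.000456), Dcn 47.8-fold, Pdgfra, a platelet-derived growth factor receptor gene of fibroblasts, at least 38.2-fold (adjusted p = 0.00112) and Col1a1, a type I collagen chain, 26.2-fold (-4.71, SE 0.18, adjusted p = 0.00101). The summed signal of the 26 genes, as a multiple of each array's 75th percentile, was 17.5 and 20.4 on the treated and untreated arrays of harvest 3. In the same order it was 48.2 and 41.0 in harvest 1 and 93.8 and 95.1 in harvest 2, which lay on different slides. Bright genes such as Dcn weigh most in this sum. On the untreated array of harvest 3, 3 members were not well above background, and 0 on the other arrays. Acta2, the smooth muscle actin gene and also bright, did not pass (log2 -0.01, SE 0.26). With TGF-β1, 0 of the 26 passed (0 also at an unadjusted p under 0.05, limma). That fit has no harvest term, so the gap between harvests enters its error (SE 2.52 for Fn1, 2.10 for Dcn). It could therefore hardly call genes with a wide gap. With the harvest as a block 0 passed and 3 had an unadjusted p under 0.05 (limma), against 3173 of all 29194 genes. On harvests 1 and 2 alone, also with the block, 0 passed and 9 had such a p, against 5817. The median log2 change of the 26 was 0.08, 0.03 and 0.35 in harvests 1, 2 and 3. The part of these transcripts in the levels of Fstl1, Unc5b, Vasn and Tcim was not tested.

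Among the marker lists of other cell types, only that of macrophages had members past the harvest threshold. The 12 blood progenitor markers were all measured and well above background on all arrays. Of these, 0 passed in harvest 3 (4 unadjusted, median 0.10) and 0 with TGF-β1 (5 unadjusted). Over all genes, 3.22% passed in harvest 3 (14.1% unadjusted) and 0.253% with TGF-β1 (5.77% unadjusted). Here and in the endothelial and epithelial lists, a count of 0 is near these shares and does not show that the markers were unchanged. Lyl1, the brightest, had a log2 difference of 0.29 (SE 0.17) in harvest 3, and the summed signal lay between 212 and 233 in harvest 3, against 188 to 242 in harvests 1 and 2. Endothelial markers (11 of 12 measured, median 0.01, brightest member Egfl7 at -0.65, SE 0.16) and epithelial markers (8 of 10, median 0.06, brightest member Krt8 at -0.21, SE 0.19) had 0 members past the threshold in either comparison (2 and 1 unadjusted in harvest 3, 0 and 0 with TGF-β1, limma). Macrophage markers moved both ways in harvest 3 (10 of 11 measured, 1 higher and 2 lower, against 0.702% and 2.52% of all genes, median -0.47, or 0.17 with the normexp model on all spots). Csf1r, the receptor for colony-stimulating factor 1, was higher (log2 1.23), and C1qc, a complement component, and Mrc1, the mannose receptor, were 7.31-fold and 4.23-fold lower.

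**Figure D4:**
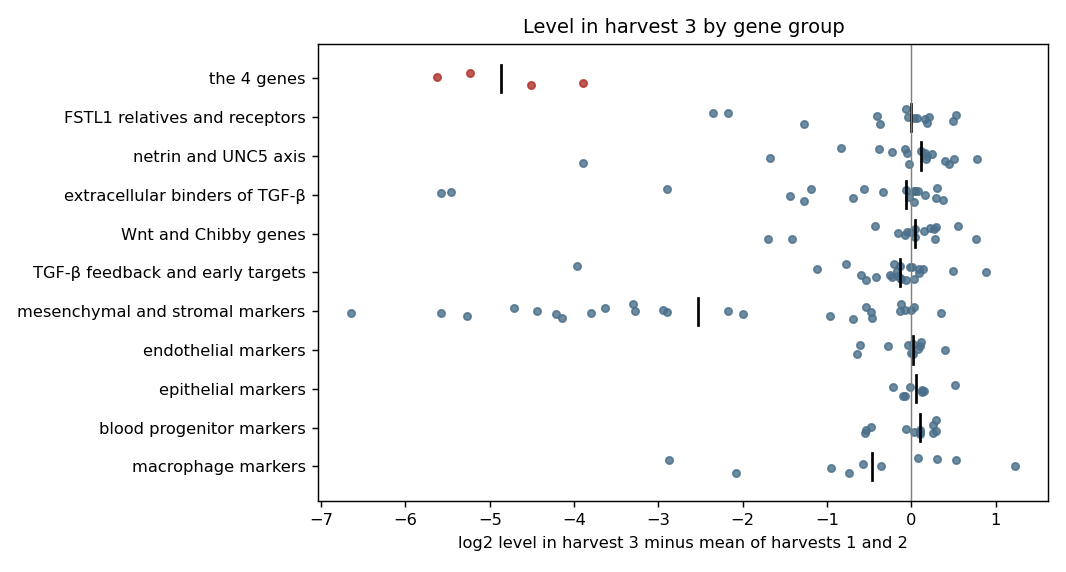
Log2 level in harvest 3 minus the mean of harvests 1 and 2 (horizontal axis) for the 4 genes (red, chosen for this value) and for each measured member of the gene lists (blue), with black bars at the medians and dim spots taken as measured. The median is -2.53 for mesenchymal and stromal markers and between -0.47 and 0.11 for the other lists.

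Over the 6 arrays Ltbp3 had the highest Pearson correlation with the mean of the 4 standardised profiles (0.996), followed by the creatine transporter gene Slc6a8 (0.993), Ctnnal1 (0.991), Cela1 (0.990) and Zkscan17 (0.990), among 15647 other genes with a symbol, of which 93 reached 0.95. For single genes the closest were Trim33, Pdlim1 and Frmd6 for Fstl1 (0.995 to 0.996), Phlda2, Ctnnal1 and Cela1 for Unc5b (0.990 to 0.993), Ltbp3, Tm4sf1 and Ctnnal1 for Vasn (0.994 to 0.9995), and Igfbp7, Pacsin3 and Aqp5 for Tcim (0.997 to 0.998). A correlation takes no account of size, and it used dim spots as measured. Trim33, a SMAD4-interacting ubiquitin ligase gene, was only 0.10 log2 units lower in harvest 3, Ltbp3 1.44 and Slc6a8 2.25, against at least 2.87 for Unc5b and 5.62 for Tcim. Among these most similar genes the widest gap was that of Aqp5, an aquaporin gene, with changes of 0.84 and 1.36 in harvests 1 and 2 and a level 3.32 log2 units lower in harvest 3.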

How the data were processed

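Total RNA of Lhx2 cells, carrying Cy3, was read on Agilent arrays of design 014868 (annotated on mm8) by Feature Extraction (10.1.1.1), as the headers of the files state. The deposited scanner files give each spot's intensity after subtraction of background and spatial detrending, per the file headers, and no scaling across arrays. The deposited series matrix holds log2 values that track log2 of the median spot signal (r from 0.99951 to 0.99989; column medians from 7.38 to 7.42). The submitters' processing notes name limma, and how it was applied is not given in the sources used here.

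Values were log2 processed signals minus each array's 75th percentile over non-control spots. Spots of a probe were averaged without outlier flags (43 to 101 spots per array), and saturation was flagged on 0 spots. Probes were kept if well above background on at least 3 of 6 arrays (36386 of 41174). Accessions named 23374 probes through the RefSeq table of GRCm38.p6. A gene was represented by its brightest passing probe. Fits over 29194 genes used R 4.3.3 and its limma package (3.58.1; lmFit, eBayes), with Benjamini-Hochberg adjustment and a threshold of 0.05, for treatment (no covariate), for harvest 3 against harvests 1 and 2 (treatment as covariate) and for the difference in change. Standard errors are moderated. The number of arrays limits the precision, and p-values measure at most the spread between these arrays. Fits with a term for each harvest leave the spread of level between harvests out of their standard errors and p-values. A p-value for harvest 3 thus does not measure how far single harvests vary in level. Same-numbered arrays come from the labels' replicate numbers, and all 3 correlations of their deviations exceeded 0.1. They were paired in the changes within a harvest, in the fits of harvest 3 and of the difference in change, and in the block fit. The main treatment fit did not use the pairing, so its counts, standard errors and p-values are those of unpaired groups.

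The fits were tested on simulated data with known changes. The 4 genes and the gene lists were chosen with earlier results of these data known. Besides the 4 and 5 fixed inhibitors, genes were named as up to 4 members past a threshold per list (or the brightest), the 3 most correlated with each gene, the 5 most correlated with their mean and up to 8 others with the combined pattern, of which 1 is not reported here. F2r, Jag1, Acta2, Id3, Ltbp2 and Htra1 were named outside this rule, after their values were seen. The scanner files hold no mean spot signal, so normexp used the median. Alternatives are given in the closing section.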

Additional observations from a re-analysis of the deposited data

How the results depend on the processing

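The number of genes past the threshold depended on the background correction and on single arrays. For TGF-β1 (74 genes) it was 171 in the authors' matrix values, 5 with the normexp model, 190 with that model fitted without 3 and 5 spots far below the local background on the arrays of harvest 3 (chosen after seeing the data), 190 with the replicate block and 7 to 23 without any 1 array. For harvest 3 against harvests 1 and 2 (940 genes) it was 1489, 16942 and 1496 in the first 3 of these settings, 2154 with the slide as a block and 537 to 1885 without any 1 array. For the difference in change (0 genes) it was 1567, 15358 and 2801, and 5 over probes well above background on all 6 arrays. The normexp model put the background mean at -118.8 and -253.1 on the treated and untreated arrays of harvest 3, against -3.707 to 0.8285 on the other arrays, and the trimmed model at -3.521 and -0.4012. It moved the median of all genes in harvest 3 to 0.57, against 0.04.

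The mean log2 change in harvests 1 and 2 became 1.53 for Fstl1 and 0.94 for Unc5b with either normexp model, and 1.75 and 1.202 in the matrix values. The log2 gap of harvest 3 became 0.33 (normexp), 2.00 (trimmed), 2.40 (matrix), 3.39 (slide 1) and 5.76 (slide 2) for Fstl1, with dim spots as measured here and for the other genes. With the bound used in the report, slide 1 gives at least 2.67 for Fstl1 and at least 1.64 for Unc5b. For Vasn it became 0.65, 2.29, 2.85 and, on slide 2, 5.94. For Tcim it became 2.38, 3.82, 4.25, 4.29 and 7.17 in the order given for Fstl1. For Unc5b it turned to -0.70 with normexp and became 0.99 (trimmed), 1.43 (matrix), 4.16 (quantile normalization), 3.69 (slide 1) and 2.87 (dim values raised to the floor, chosen after seeing the data). The count of 15 genes with the combined pattern became 1 (normexp), 4 (trimmed), 6 (matrix), 5 (all 6 arrays well above background), 28 (lower limit on the change) and 8 (level at least 3 log2 lower).

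With normexp the harvest 3 medians were 0.51 for follistatin-like 1 relatives, 1.15 for netrin, 0.18 for TGF-β binders, 0.77 for Wnt, 0.018 for feedback (turned), -0.64 for mesenchymal, 0.69 for endothelial, 1.19 for epithelial and 0.17 for macrophage genes (turned). Its TGF-β1 medians were -0.24 for netrin, -0.27 for epithelial and -0.15 for progenitor genes. Without any 1 array the endothelial harvest 3 median ran between -0.25 and 0.17 and the epithelial TGF-β1 median between -0.051 and 0.24. The other 265 list medians under alternatives moved by less than the spread between arrays. For the TGF-β1 median of mesenchymal markers (0.11) that spread was wide (1.95). Without any 1 array this median ran between -0.61 and 0.95, so its sign depended on single arrays. In the gene lists the replicate block changed no count of calls with TGF-β1 except that of the feedback list (9, against 6). The cause of these shifts was not tested beyond the background means given. Signal over background limits every harvest 3 value of Fstl1, Unc5b and Vasn.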
